A study of Arabidopsis thaliana with 4 samples.

Results

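The genes described here are 95 Arabidopsis thaliana loci that have no gene symbol, only a locus tag, and whose probe sets were among the brightest on every array of the series. They were chosen from 22746 probe sets, array controls left out, in 3 steps. A probe set had to be annotated to 1 gene, that gene's symbol had to be its locus tag, and on each of the 4 arrays the signal had to exceed that array's 97th percentile. Of the 22746 probe sets, 388 were that bright on all 4 arrays. These comprised the 95 locus-tag probe sets, 35 that named 1 gene with a symbol, 28 that named several genes and 230 that are unnamed here. In all, 11933 probe sets named 1 gene by its locus tag alone. Signal on the arrays thus chose the members, and their high level is a description and not a finding.

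The arrays came from whole seedlings of the Columbia ecotype that carried pER8-LEC1, an estradiol-dependent transgene for LEC1 (LEAFY COTYLEDON1), which encodes a transcriptional regulator of embryo development. LEC1 induced seedlings were germinated and grown for 4 days on 10 µM estradiol, and control seedlings, which carried the same transgene, on 0.1% DMSO. Each group had 2 biological replicates, and each replicate was 1 pool of whole seedlings on 1 Affymetrix ATH1 array. How many independent transgenic lines were used is not stated in the labels, and no seedlings without the transgene were analysed here, so LEC1 and estradiol itself cannot be told apart.

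In a growing seedling a small number of genes supplies much of the messenger RNA. Textbook examples are genes for the ribosome and its translation factors, for central carbon metabolism and, in green tissue, for photosynthesis. On an array such genes often stand near the top of the signal range. The tables used here name a gene product for 3 of the 95 loci. AT4G01150 is CURT1A (CURVATURE THYLAKOID 1A), a protein that bends the margins of the thylakoid membranes of chloroplasts. AT1G74470 is a geranylgeranyl reductase, an enzyme that makes the phytyl side chain of chlorophyll and of tocopherols. AT1G54410 is HIRD11, an 11 kDa dehydrin, a member of a family of hydrophilic proteins known from water stress and seed drying. For the other 92 loci the tables give a locus tag and in part clone names, so no role is stated for them.

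The seedlings could be checked against few defining markers, none of which was a member. In the list of shoot genes 2 of 13 were named on the array, RCA and LHCB4.1, and their summed normalized signal was 2541 and 3405 on the LEC1 induced arrays and 5958 and 6623 on the control arrays. Of 8 root genes EXPA7 was named, at 24.0 and 49.5 against 96.3 and 68.3. Of 15 genes of seed and embryo maturation 5 were named, with a sum of 21502 and 20003 on the induced arrays and 59.9 and 67.7 on the control arrays, where 4 of the 5 lay under the 40th percentile of the array. In bulk seedlings, fewer cells of a type and less RNA per cell cannot be told apart.

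As deposited, the arrays differed in level and in spread. The median signal was 39.4 and 22.3 on the LEC1 induced arrays and 20.0 and 15.5 on the control arrays. The 97th percentile, the cut of the selection, lay at 901 and 558 on the induced arrays and at 755 and 522 on the control arrays. The cut was thus 22.9 and 25.0 times the median on the induced arrays and 37.8 and 33.7 times the median on the control arrays, so that the top of the signal range stood farther above the middle in controls. The 95 loci held 5.45% and 6.06% of the summed signal on the induced arrays, against 8.28% and 7.79% on the control arrays. The 388 equally bright probe sets together held 24.8% and 28.6% on the induced arrays, against 36.5% and 35.8% on the control arrays, and both shares were higher on each control array than on either induced array. Signals below were quantile normalized between arrays, a step that gives every array the same distribution and keeps the order of probe sets within it. On that scale the cut was 667 on every array.

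Within the selection the signals spread from the cut up to several times its value. On the LEC1 induced arrays the 95 loci had a median normalized signal of 1375 (669 to 4580) for replicate 1 and 1410 (669 to 4799) for replicate 2. On the control arrays it was 1769 (687 to 5735) for replicate 1 and 1579 (669 to 4470) for replicate 2. The highest rank any member reached among the 22746 probe sets was 26 and 22 on the induced arrays and 14 and 28 on the control arrays. Of the 95, 22 were above the 99th percentile on all 4 arrays, 30 were above it on no array, and the remaining 43 passed it on some arrays. The number above the 99th percentile was 33 and 36 on the induced arrays and 53 and 46 on the control arrays. A probe set's signal depends on how well its probes bind as well as on the transcript, so the order of loci is an order of signals and not of transcript amounts.

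**Figure D1:**
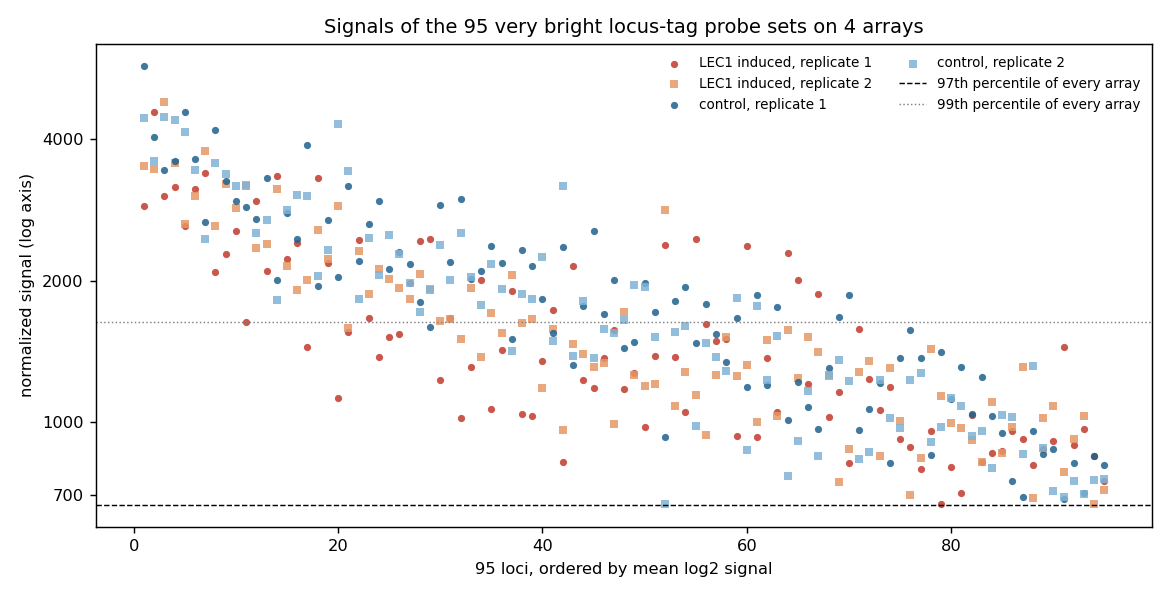
Normalized signal (log axis) of each of the 95 loci on the 2 LEC1 induced and the 2 control arrays, with loci ordered by their mean log2 signal and lines at the 97th and 99th percentile. Every point lies above 667, the 97th percentile, and the arrays of one locus often spread as far as neighbouring loci differ.

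The 8 loci with the highest mean signal included some with like levels in both groups and some that were lower in LEC1 induced seedlings. AT3G09200 gave normalized signals of 2880 and 3507 on the induced arrays and 5735 and 4439 on the control arrays. Its groups did not overlap, but the difference of -0.67 ± 0.21 SE on the log2 scale did not pass (limma adjusted p = 0.112). AT5G20290 gave 4580 and 3455 in induced and 4055 and 3600 in control seedlings, with overlapping groups and a difference of 0.06 ± 0.21 SE. AT2G34480 gave 3032 and 4799 in induced and 3438 and 4470 in control seedlings, so its replicates differed more than its groups did. Both replicate 2 arrays were the brighter ones for this locus.

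AT3G60245 gave 3162 and 3572 in LEC1 induced and 3600 and 4396 in control seedlings, a difference of -0.24 ± 0.19 SE (limma adjusted p = 0.457). AT1G52300 was among the most even of the brightest loci, at 3139 and 3032 in induced and 3634 and 3438 in control seedlings (log2 change -0.20 ± 0.18 SE, limma adjusted p = 0.508). Both loci were lower on each induced array than on either control array, by amounts that the fit could not separate from the spread. AT5G15200 gave 2613 and 2638 in induced and 4580 and 4144 in control seedlings, and AT1G15930 gave 2089 and 2613 in induced and 4190 and 3572 in control seedlings. Their log2 changes were equal, at -0.73 ± 0.18 SE and -0.73 ± 0.21 SE, and neither passed (limma adjusted p = 0.0659 and 0.0934). AT1G67430 ran the other way, at 3388 and 3788 in induced and 2664 and 2456 in control seedlings, a log2 change of 0.49 ± 0.19 SE that did not pass (limma adjusted p = 0.164) and that turned to -0.30 with arrays centred on their medians.

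The comparison of LEC1 induced with control seedlings asked which of these bright loci differed between the groups. In a fit over all 14433 probe sets that passed a filter on dim signals, 3 of the 95 loci changed, 1 upward and 2 downward (limma, Benjamini-Hochberg adjusted p under 0.05 over all kept probe sets). Over all kept probe sets 5.74% were called, 2.83% upward and 2.91% downward, and 3 of 95 is no larger a share than this background. All 95 passed the filter, as their brightness required. A locus that left the top of the array in either group could not be a member, so the selection itself limits how large a change can be found among them. At an unadjusted p under 0.05 there were 26 of the 95, where 26.5% of all kept probe sets were.

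AT3G05500 rose 3.30-fold in LEC1 induced seedlings, the only rise that passed among the 95. Its normalized signals were 2386 and 2835 in induced seedlings and 930 and 669 in controls, and its lowest value stood just above the cut, at 1.006 times it on control replicate 2. The mean log2 signal was 11.34 ± 0.18 in induced seedlings and 9.62 ± 0.34 in controls (SD, n = 2 each), a change of 1.72 ± 0.26 SE (limma adjusted p = 0.0230). With each array centred on its median in place of quantile normalization, the change was 0.97 and did not pass (limma adjusted p = 0.128). Of the 95, this locus had the widest range, 4.24-fold from its lowest to its highest array.

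AT5G27700 fell by 1.62 ± 0.25 SE on the log2 scale. It gave 823 and 961 in LEC1 induced seedlings and 2360 and 3177 in controls (limma adjusted p = 0.0235), so each induced array was under each control array by a wide margin. AT3G11510 fell by 1.07 ± 0.19 SE, with 1556 and 1587 in induced and 3187 and 3424 in control seedlings (limma adjusted p = 0.0330). Centred on array medians, both passed, at -2.32 for AT5G27700 and -1.84 for AT3G11510 (limma adjusted p = 0.00831 and 0.0132). The replicates of AT3G11510 were close, with 1.02-fold between the induced and 1.07-fold between the control arrays. On the signals as deposited, without normalization, none of the 3 passed, with log2 changes of 1.72 for AT3G05500, -1.57 for AT5G27700 and -1.09 for AT3G11510 (limma adjusted p = 0.064, 0.0627 and 0.16).

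The 3 calls also ended when either control array was left out, but not when either induced array was. The log2 changes of AT3G05500, AT5G27700 and AT3G11510 were 1.85, -1.51 and -1.06 without induced replicate 1. Without induced replicate 2 they were 1.60, -1.73 and -1.09. In each such fit the spread comes from the group that keeps 2 arrays, and the lone array of the other group is assumed to vary like them. Without control replicate 1 the log2 changes of AT3G05500, AT5G27700 and AT3G11510 were 1.96, -1.84 and -1.12 (limma adjusted p = 0.089, 0.108 and 0.181). Without control replicate 2 they were 1.48, -1.41 and -1.02 (limma adjusted p = 0.139, 0.173 and 0.221). Without control replicate 1, 0 of the 95 loci and 1.13% of all kept probe sets passed in limma, and 6.32% of the loci and 17.4% of all kept probe sets had an unadjusted p under 0.05. Without control replicate 2, 0 loci and 0.942% of all kept probe sets passed in limma, and at an unadjusted p under 0.05 there were 12.6% and 17.2%.

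**Figure D2:**
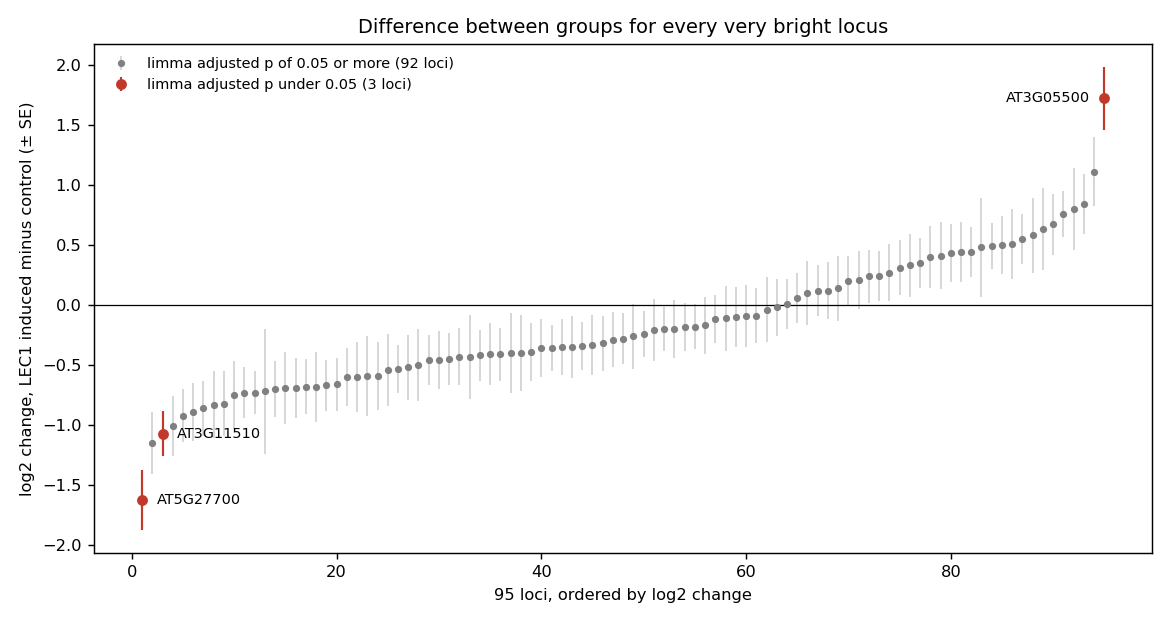
Log2 change of each of the 95 loci, LEC1 induced minus control, with its standard error, ordered by size. AT3G05500 stands alone at the upper end at 1.72, AT5G27700 at the lower end at -1.62, and most loci lie within 1 of 0.

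Other loci differed by a similar amount without passing, and they are named here after their values were seen. AT5G47700 gave 1023 and 1505 in LEC1 induced and 2988 and 2524 in control seedlings (log2 change -1.15 ± 0.26 SE, limma adjusted p = 0.0581). AT3G58610 gave 1447 and 2006 in induced and 3883 and 3032 in control seedlings (-1.01 ± 0.25 SE, limma adjusted p = 0.0682). For AT5G56710 the signals were 2293 and 1575 in induced and 1011 and 770 in control seedlings (1.11 ± 0.29 SE, limma adjusted p = 0.0754). In none of these 3 loci did the groups overlap.

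AT5G61170 gave 976 and 1195 in LEC1 induced and 1975 and 1939 in control seedlings, a log2 change of -0.86 ± 0.23 SE (limma adjusted p = 0.0793). AT5G52650 gave 1232 and 1640 in induced and 2898 and 2386 in control seedlings, a change of -0.89 ± 0.24 SE (limma adjusted p = 0.0848). AT1G09310 gave 3345 and 3139 in induced and 2006 and 1820 in control seedlings, a change of 0.76 ± 0.19 SE (limma adjusted p = 0.0714), or -0.03 with arrays centred on their medians. These 3 loci showed no overlap of the groups either.

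The 3 loci with a named product lay above the cut in both groups, as the selection required of every member. CURT1A (AT4G01150), the thylakoid curvature protein gene, gave 928 and 1002 in LEC1 induced and 1870 and 1769 in control seedlings. Its difference of -0.92 ± 0.22 SE did not pass (limma adjusted p = 0.0642), although the groups did not overlap. The geranylgeranyl reductase gene AT1G74470 gave 1273 and 1262 in induced and 1480 and 1961 in control seedlings (-0.43 ± 0.24 SE, limma adjusted p = 0.305). HIRD11 (AT1G54410), the dehydrin gene, gave 860 and 1104 in induced and 1029 and 800 in control seedlings, with overlapping groups and a difference of 0.10 ± 0.27 SE (limma adjusted p = 0.837). The genes for products tied to chloroplasts were thus lower on each induced array than on either control array, without passing. Both induced arrays lay below both control arrays for 49 of the 95 loci and for 29% of all kept probe sets. No trait of chloroplast products is therefore read from that order. The dehydrin gene showed no order of the groups.

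Across the 95 loci the differences were mostly small and more often negative. The median log2 change was -0.28, with the middle part of the distribution, from the first to the third quartile, between -0.56 and 0.23, and the full range from -1.62 to 1.72. Over all kept probe sets the median was 0.00 with quartiles at -0.59 and 0.58. Of the 95 loci, 63 were lower and 32 higher in LEC1 induced seedlings, where 50% of all kept probe sets were lower. The change was under 0.5 in size for 57 loci, 0.5 to 1 for 32 and 1 or more for 6. A change over 1 was seen in 6.32% of the loci and in 26.8% of all kept probe sets. Among the equally bright probe sets it was seen in 17.1% with a symbol, 7.14% with several genes and 9.57% unnamed here.

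Both induced arrays lay below both control arrays for 49 of the 95 loci, against 29% of all kept probe sets. Both lay above for 26 loci, against 29.3% of all kept probe sets, and the groups overlapped for 20. Among the equally bright probe sets, both lay below for 17 of 35 with a symbol and 11 of 28 with several genes. It was so for 94 of 230 that are unnamed here. Both lay above for 9, 4 and 52, in the same order. Between the arrays of replicate 1 the median difference of the loci was -0.26, with 63 of 95 lower in the induced array. Between the arrays of replicate 2 it was -0.14, with 60 of 95 lower. By brightness, 24 of the 32 loci with the highest mean signals were lower in induced seedlings, as were 23 of the next 31 and 16 of the 32 with the lowest. The median change in these portions was -0.34, -0.43 and 0.04.

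**Figure D3:**
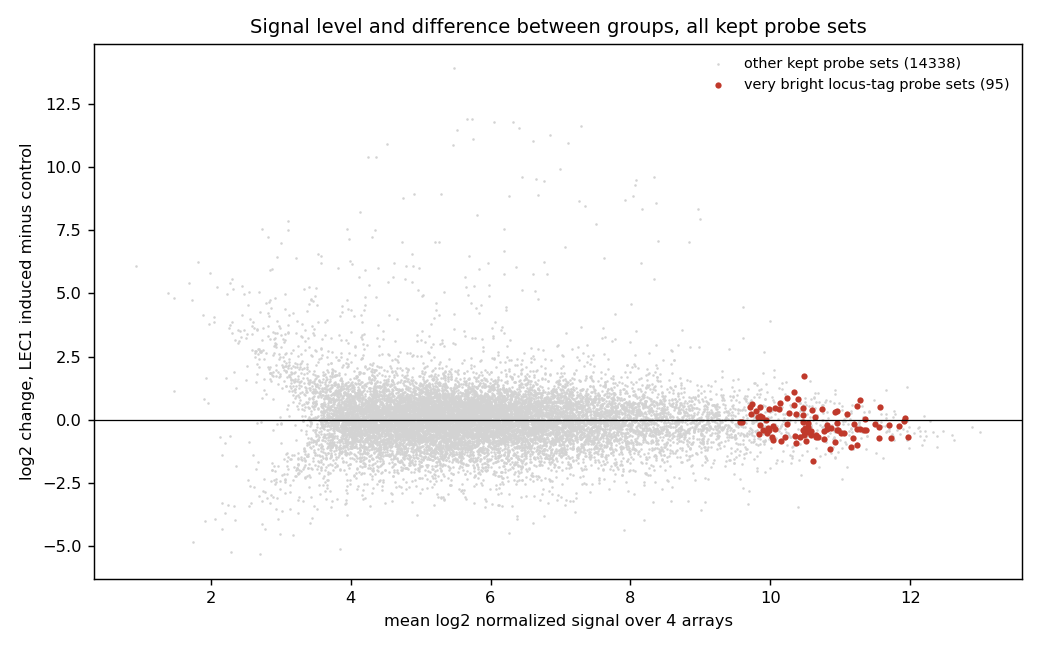
Mean log2 normalized signal over the 4 arrays against log2 change, LEC1 induced minus control, for all 14433 kept probe sets, with the 95 loci in red. The loci sit at the bright end, between -1.62 and 1.72, while dimmer probe sets reach from -5.34 to 13.91.

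The size of this shift depended on how the arrays were scaled. Without normalization the median of the 95 loci was -0.26 and that of all kept probe sets moved to 0.62, which put the loci 0.88 below the rest. With each array centred on its median, the loci had a median of -1.02 and all kept probe sets one of -0.14. Centring adds 1 constant to each array, so the distance of 0.88 and the count below the median stay the same by construction. After quantile normalization the distance was 0.28. Relative to the median of all kept probe sets, 86 of 95 loci were lower without normalization and under median centring, and 63 after quantile normalization. Under median centring 26 of the 95 loci (27.4%) were called lower and 0 higher, against 9.76% of all kept probe sets called either way. Among the 26 were AT5G47700 (log2 change -1.88, limma adjusted p = 0.0212) and CURT1A (-1.64, limma adjusted p = 0.0207). Without normalization 0 loci and 4.09% of all kept probe sets passed in limma, with 6 loci (6.32%) and 23.2% of all kept probe sets at an unadjusted p under 0.05. Over all kept probe sets the split was 447 higher and 962 lower under median centring, 494 higher and 97 lower without normalization, and 408 higher and 420 lower after quantile normalization. As given above, the cut stood nearer the median on the induced arrays as deposited, a difference that quantile normalization takes away. Its part in these shifts was not tested.

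**Figure D4:**
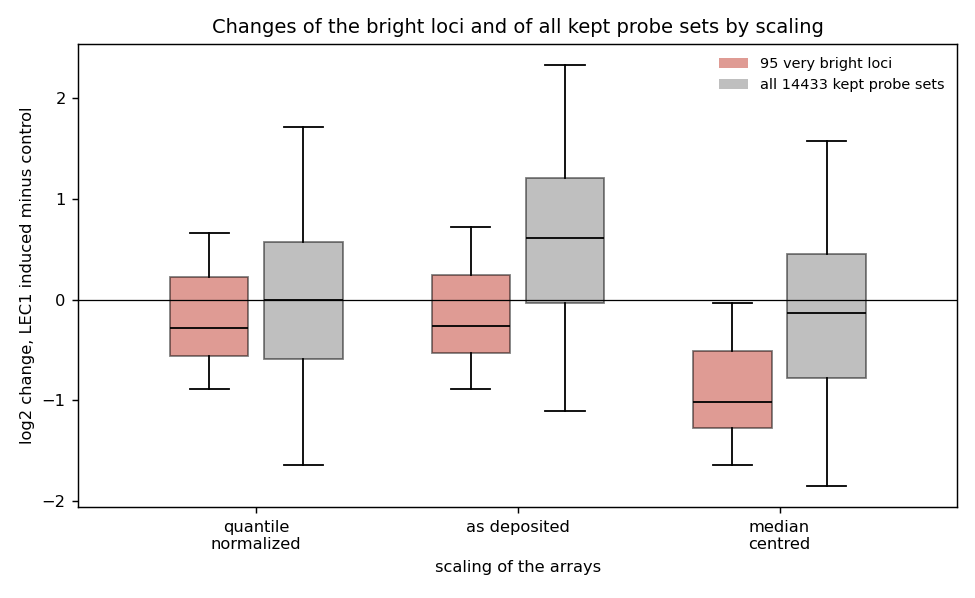
Log2 change, LEC1 induced minus control, under each scaling of the arrays, for the 95 loci (red) and all 14433 kept probe sets (grey). Boxes show quartiles and the median, whiskers the 5th to 95th percentile, and the loci's median lies under that of all kept probe sets in each scaling, by 0.28 to 0.88.

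The 3' to 5' ratios, a sign of RNA integrity, were mixed between the groups. The 3' to 5' signal ratio of a pair of actin control probe sets was 1.96 and 1.94 on the LEC1 induced arrays and 3.28 and 3.01 on the control arrays, and that of another actin pair was 21.6 and 20.7 against 21.8 and 25.1. For GAPDH the ratios were 0.932 and 0.911 against 0.773 and 0.890 in one pair and 1.82 and 1.15 against 1.56 and 1.64 in the other. Spikes are no sign of integrity. Poly-A spike RNA had a median signal of 200 and 106 on the induced arrays and 350 and 100 on the control arrays, so both replicate 1 arrays were the brighter ones. Hybridization spikes had a median of 358 and 331 on the induced arrays and 338 and 376 on the control arrays. The part of these differences in the changes of the 95 loci was not tested.

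The selection kept every signal of a locus above the cut, which limits how far its signals could differ across arrays, so the ranges are a description. The highest signal was less than 1.5 times the lowest for 36 of the 95 loci and less than 2 times for 69. It was over 3 times the lowest for 3. These ranges were not counted over all kept or equally bright probe sets, so no trait of the 95 is read from them. The loci with the narrowest ranges were singled out after their values were seen. AT3G03070 gave 751 and 717 in LEC1 induced and 812 and 758 in control seedlings, a range of 1.13-fold. AT1G65720 gave 1036 and 915 in induced and 1040 and 935 in control seedlings, a range of 1.14-fold. In both loci, replicate 1 was brighter than replicate 2 in each group.

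AT3G60770 gave 1505 and 1517 in LEC1 induced and 1344 and 1286 in control seedlings, with no overlap but a range of 1.18-fold (log2 change 0.20 ± 0.21 SE, limma adjusted p = 0.582, or -0.52 with arrays centred on their medians). AT5G27850 gave 1980 and 1831 in induced and 2167 and 1980 in control seedlings, also 1.18-fold (-0.12 ± 0.20 SE, limma adjusted p = 0.734). With standard errors of that size, the fit does not show that the levels are equal.

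The least repeatable loci were also singled out after their values were seen. AT2G10940 gave 1128 and 2880 in LEC1 induced and 2035 and 4319 in control seedlings, so replicate 2 was 2.55 times replicate 1 in induced seedlings and 2.12 times in controls. Its groups overlapped, and the log2 change of -0.72 ± 0.52 SE did not pass (limma adjusted p = 0.417). AT3G56880 ran the other way, at 2461 and 1144 in induced and 1478 and 981 in control seedlings, with replicate 1 brighter in both groups. AT2G45180 differed between the induced replicates alone, at 1635 and 3203, while its controls were 2867 and 3187. AT5G11770 differed between the control replicates, at 2558 and 1372, while its induced arrays gave 1183 and 1314.

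Over all 95 loci the median absolute difference between replicates was 0.28 on the log2 scale for the LEC1 induced arrays and 0.20 for the controls. Over all kept probe sets it was 0.45 and 0.37. The median standard error of the change was 0.24 for the loci and 0.38 for all kept probe sets. It was 0.25 for the equally bright probe sets with a symbol, 0.25 for those with several genes and 0.24 for those unnamed here. The fit draws standard errors toward a value set by the signal level, so like values at like brightness are no finding. The median replicate differences on the induced and control arrays were 0.39 and 0.22 for equally bright probe sets with a symbol. They were 0.30 and 0.17 for those with several genes, and 0.32 and 0.16 for those unnamed here. Across the 95 loci, log2 signals correlated at 0.786 between the induced arrays and at 0.923 between the control arrays. Between an induced and a control array the correlation was 0.507 to 0.712. Over all kept probe sets the same correlations were 0.893, 0.901 and 0.681 to 0.768. These are descriptions over 95 probe sets that share the same arrays and a narrow range of signals.

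The loci near the cut show how sharp the selection was. AT3G18280 was the nearest inside, with a lowest signal 1.001 times the cut on LEC1 induced replicate 1. It gave 669 and 1137 in induced and 1410 and 976 in control seedlings. The nearest locus-tag probe set outside was that of AT5G44020, at 0.9932 times the cut on control replicate 1, with 1334 and 908 in induced and 661 and 934 in control seedlings. Both crossed or missed the cut by less than their replicates differed.

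Loci that were as bright in 1 group alone fell outside the selection. Both induced arrays but not both control arrays were above the cut for 42 locus-tag probe sets, and of these 33 were above it on neither control array. Both control arrays but not both induced arrays were above it for 41, of which 22 were above it on neither induced array. The median log2 change was 1.49 (0.19 to 11.9) in the first set and -0.88 (-3.98 to 0.05) in the second. The way these sets were chosen favours these directions, without fixing the sign for every locus. Together with the 95, the very bright locus-tag probe sets thus numbered 137 in induced and 136 in control seedlings.

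The 95 loci were spread over the 5 nuclear chromosomes, as their locus tags state. Chromosome 3 held 31 of them (32.6%), against 20.5% of all locus-tag probe sets, and chromosome 1 held 19 (20.0%), against 26.0%. Chromosomes 2, 4 and 5 held 14, 11 and 20. Each of the 95 probe sets had the plain suffix that Affymetrix gives to a set designed for 1 transcript, as had 97.7% of all 11933 locus-tag probe sets. Among the 28 equally bright probe sets with several genes, 22 had the suffix of sets shared by several transcripts. Signal from close relatives of a locus may still add to a plain set, and this was not tested.

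In the gene order of assembly TAIR10.1, AT2G27710 and AT2G27720 were direct neighbours, the only such pair within the 95. AT2G27710 gave 1734 and 1582 in LEC1 induced and 1550 and 1489 in control seedlings, a log2 change of 0.12 ± 0.21 SE (limma adjusted p = 0.739). AT2G27720 gave 1353 and 1183 in induced and 1831 and 2250 in control seedlings, a change of -0.68 ± 0.23 SE (limma adjusted p = 0.127). Centred on array medians the changes were -0.65 and -1.46, both below 0, and AT2G27720 passed (limma adjusted p = 0.0249). The difference between the neighbours' changes was not tested. AT3G02080 stood beside MPPBETA, a gene for a subunit of the mitochondrial processing peptidase that was as bright. AT3G02080 gave 1572 and 991 in induced and 2010 and 1546 in control seedlings, with overlapping groups, and MPPBETA 807 and 1155 in induced and 1155 and 1113 in control seedlings.

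Of the 388 equally bright probe sets only 35 named 1 gene with a symbol, so their names cover only a part of the functions at the top of the arrays. In all, 1580 probe sets named 1 gene with a symbol. Their functions were not counted, so no share stands beside the counts that follow. Photosynthesis and the plastid ATP synthase accounted for 14 of the 35, among them psaB and PSAE-1 of photosystem I, LHCB4.1 and LHCB4.2 of the photosystem II antenna, petB of the cytochrome b6f complex and RCA, which activates Rubisco. The log2 changes of these 14 ranged from -1.31 to -0.04, with a median of -0.95. The median over all 35, which include these 14, was -0.43. For 3 of the 14 the groups overlapped. Both induced arrays lay below both control arrays for 17 of all 35 and for 29% of all kept probe sets. The grouping of the 14 was made after values were seen and has no test. Of the 14, 1 passed, where 5.74% of all kept probe sets did. It was LHCB4.1, with 1648 and 1840 in induced and 3345 and 3345 in control seedlings (limma adjusted p = 0.0446). Of 4 genes of central carbon metabolism, GAPC2, TPI, cICDH and ICL, 1 fell, ICL, the glyoxylate cycle enzyme isocitrate lyase. It gave 3186 and 4190 in induced and 8878 and 6811 in control seedlings (limma adjusted p = 0.0415). The other 3 did not pass. The triose phosphate isomerase gene TPI gave 3507 and 3424 in induced and 3370 and 2664 in control seedlings (log2 change 0.21 ± 0.20 SE, limma adjusted p = 0.534). The isocitrate dehydrogenase gene cICDH gave 2301 and 1822 in induced and 1158 and 1403 in control seedlings (0.68 ± 0.24 SE, limma adjusted p = 0.139). GAPC2, for a glyceraldehyde phosphate dehydrogenase, gave 4144 and 3986 in induced and 6647 and 4508 in control seedlings (-0.43 ± 0.22 SE, limma adjusted p = 0.272). The peroxidase gene PRXR1 rose 2.45-fold, with 6028 and 6339 in induced and 2128 and 2988 in control seedlings (limma adjusted p = 0.0277).

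The same measures can be set side by side for the equally bright sets. Of the 35 named genes 3 were called, 1 upward and 2 downward. That is 3.16% of the 95 loci and 8.57% of the 35, against 5.74% of all kept probe sets. The median change was -0.28 for the 95 and -0.43 for the 35. The 35 include the 14 genes of photosynthesis and the plastid ATP synthase, whose median was -0.95. A change over 1 was seen in 6.32% of the 95 and 17.1% of the 35. It was seen in 7.14% of the 28 with several genes and in 9.57% of the 230 unnamed here. Among the 230 equally bright probe sets that are unnamed here, 13 were called (5.65%), 6 upward and 7 downward, with a median change of -0.14. Of the 28 with several genes 1 was called (3.57%), downward, with a median change of -0.19. These are counts over sets of unequal size that share the same 4 arrays, and the differences between the sets were not tested.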

How the data were processed

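Amplified RNA of 4 whole-seedling samples, 2 LEC1 induced and 2 control, was hybridized to ATH1 arrays (Affymetrix), per the labels' protocols. The authors deposited 1 linear signal intensity per probe set and array, made with MAS5 per the submitters' processing notes. The scaling of MAS5 and its detection calls are not stated in the labels. The series' design text describes a t-test with a false discovery rate under 0.2.

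Of 22810 probe sets, 64 array controls were left out. Values under 0.1 (8 values) were set to 0.1, log2 values were quantile normalized, because array medians differed, and probe sets over the 40th percentile of their array on at least 2 arrays were kept (14433). Percentile ranks for the selection were taken on the deposited signals. The groups' difference was fitted in limma 3.58.1 under R 4.3.3 (eBayes, trend on the mean, two-sided, p-values adjusted by Benjamini-Hochberg across every kept probe set, threshold 0.05), checked on simulated data. The 2 residual degrees of freedom plus a prior worth 4.392 limit the precision, as does the number of arrays. Gene names came from the platform's annotation, and all 95 loci matched the gene table of assembly TAIR10.1. No sequence is shown.

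The members and lists were chosen with earlier results of these data known. Named loci were the 8 with the highest mean signal, called loci whose groups did not overlap (up to 6 each way), the brightest 2 of each functional class with 5 or more members, and the loci nearest the cut. Since 92 members had no functional text, only that class was large enough. Another 20 loci are named after their values were seen, and the grouping of bright genes with symbols was made then too. Alternatives were other scalings, filters, an offset of 16, other variance priors, the replicate block, leaving out each array, the methods' t-test and other cuts.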

Additional observations from a re-analysis of the deposited data

How the results depend on the processing

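The number of very bright locus-tag probe sets was 177 with a cut at the 95th percentile and 22 at the 99th. It was 95 with current symbols, 136 with the control arrays alone and 137 with the LEC1 induced arrays alone. Calls among the 95 loci, 3 in all, are given with the percent of all tested probe sets called in the same fit, 5.74% as reported. They numbered 0 without normalization (6 at an unadjusted limma p under 0.05) against 4.09%, 26 under median centring against 9.76%, 1 without a filter against 2.87% and 5 with the filter at the 60th percentile against 9.23%. With no trend in limma's variance prior they were 0 (10 unadjusted, 10.5% against 25.4%) against 2.64%, and with the replicate block 10 against 17.9%. The methods' t-test gave 0 (9 unadjusted, 9.47% against 8.93%). Leaving out 1 array gave 0 to 24 calls, with 0 when either control array was left out against 1.13% and 0.942%, 5 without LEC1 induced replicate 1 against 7.64%, and 24 without induced replicate 2 against 13.4%. Over all kept probe sets, the 828 calls became 1409 under median centring, 381 when the prior had no trend, 2583 with the replicate block, 1 by the methods' t-test at a false discovery rate of 0.2, and 136 to 1935 without 1 array, with 136 without control replicate 2, 163 without control replicate 1 and 1935 without LEC1 induced replicate 2. The loci's median change was -1.02 under median centring and below 0 under each alternative run. The labels state no tie between arrays of the same replicate number. Their deviations correlated at 0.311, over 14433 probe sets and only 2 pairs, so the block is given here alone. The cause of these shifts was not tested.

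Signs turned for named loci that had not been called. Under median centring the log2 change was -0.03 for AT1G09310, -0.55 for AT1G54410, -0.30 for AT1G67430, -0.65 for AT2G27710, -0.27 for AT3G56880, -0.52 for AT3G60770 and -0.62 for AT5G20290. Without normalization it was 0.07 for AT1G65720 and 0.07 for AT3G03070. Without 1 array, it ranged from -0.08 to 0.28 for AT1G54410, from -0.11 to 0.07 for AT1G65720, from -0.37 to 0.29 for AT2G34480, from -0.89 to 0.08 for AT2G45180, from -0.07 to 1.03 for AT3G56880 and from -0.15 to 0.26 for AT5G20290. With 2 arrays per group, the number of arrays limits what can be detected.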
